A study of Homo sapiens with 17 samples.

Results

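Interferon-induced genes and interferon regulatory factors (IRFs) were described across 17 expression arrays of human breast cell lines. Members were all genes whose symbol begins with IFI, IFIT, IFITM, IRF or GBP and a number, or with OAS or ISG, together with IFIH1, MX1 and MX2. This gave 43 genes, each read by 1 probe set, of the 17687 genes with a symbol among 24351 probe sets. By role the members comprised 8 transcription factors, 6 sensors and oligoadenylate synthetases, 14 antiviral effectors with their name relatives, 7 guanylate-binding proteins, and 8 other IFI genes and name relatives.

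MDA-MB-231, a mesenchymal triple-negative breast cancer line, contributed 13 arrays. Cells given Maraviroc or DZH_2, each at its IC20 and at its IC50, had 2 arrays per dose, as did cells given DMSO alone and cells given ethanol alone, and untreated cells had 1. Another 4 arrays were titled MCF10, a non-tumorigenic mammary epithelial line, with 1 array for each of the 2 DZH_2 doses, for DMSO and for no treatment. Maraviroc is a drug used against HIV, and DZH_2 is known here only by its code name. IC20 and IC50 denote the concentrations that inhibit by 20% and 50%. The molar doses are not given in the sources consulted. Cells were treated for 48 h after 24 h of seeding. Maraviroc was set against ethanol and DZH_2 against DMSO. Nothing in the labels says that replicates came from separate cultures, so a p-value here reflects array-to-array spread that may be technical only. In bulk RNA, fewer cells carrying a transcript and less of that transcript per cell cannot be told apart.

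Type I interferons signal through a receptor made of IFNAR1 and IFNAR2 and through Janus kinases to a transcription factor complex that contains IRF9 and binds interferon-stimulated response elements (ISREs) at its target genes. Interferon gamma acts at gamma-activated sites (GASs). Cytosolic and endosomal sensors of foreign nucleic acid switch the interferon genes on through IRF3 and IRF7, and many sensors are themselves induced by interferon. In breast cancer cells a part of this programme can be expressed without infection.

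Promoters of 6 members are shown because the values below turn on these genes. Each is the run of 250 bases just before the RefSeq transcription start, from the GRCh38.p14 assembly and written along the gene's own strand. Capitals mark matches to the ISRE core GAAANNGAAA or the GAS core TTCNNNGAA on either strand, with matches allowed to overlap. IFIT1 and IFIT3 have 2 ISRE matches each and ISG15 has 2 that overlap. IRF9 has 1 GAS match. IFITM1 has 1 ISRE match and 1 GAS match, and a further ISRE match overlaps the GAS match and runs past the start site. IFIH1 has 3 ISRE matches, of which 2 overlap.
IFIT1, chr10:89392373-89392622, plus strand: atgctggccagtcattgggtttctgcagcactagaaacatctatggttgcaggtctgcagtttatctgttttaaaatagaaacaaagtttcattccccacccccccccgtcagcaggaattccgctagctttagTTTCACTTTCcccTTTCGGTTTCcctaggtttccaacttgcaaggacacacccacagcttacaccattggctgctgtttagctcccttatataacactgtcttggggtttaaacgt
IFIT3, chr10:89332279-89332528, plus strand: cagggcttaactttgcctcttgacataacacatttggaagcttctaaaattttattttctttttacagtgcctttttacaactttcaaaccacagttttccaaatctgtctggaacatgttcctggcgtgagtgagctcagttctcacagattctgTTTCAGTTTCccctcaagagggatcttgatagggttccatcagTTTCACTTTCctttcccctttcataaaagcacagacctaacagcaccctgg
ISG15, chr1:1013247-1013496, plus strand: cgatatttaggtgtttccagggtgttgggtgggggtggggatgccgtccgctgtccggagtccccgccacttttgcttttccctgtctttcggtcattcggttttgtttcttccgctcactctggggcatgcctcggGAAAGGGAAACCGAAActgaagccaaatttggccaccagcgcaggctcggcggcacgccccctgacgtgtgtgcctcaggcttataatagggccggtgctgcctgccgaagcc
IRF9, chr14:24161015-24161264, plus strand: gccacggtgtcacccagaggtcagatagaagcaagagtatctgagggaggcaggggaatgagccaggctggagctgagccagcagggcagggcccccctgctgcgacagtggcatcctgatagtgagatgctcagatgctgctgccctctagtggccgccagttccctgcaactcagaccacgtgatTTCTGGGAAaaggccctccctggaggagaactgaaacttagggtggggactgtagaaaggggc
IFITM1, chr11:313790-314039, plus strand: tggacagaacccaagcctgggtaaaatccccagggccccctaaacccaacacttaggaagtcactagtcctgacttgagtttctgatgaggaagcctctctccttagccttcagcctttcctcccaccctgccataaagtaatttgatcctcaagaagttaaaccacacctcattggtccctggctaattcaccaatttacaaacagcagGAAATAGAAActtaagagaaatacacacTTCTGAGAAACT
IFIH1, chr2:162318685-162318934, minus strand: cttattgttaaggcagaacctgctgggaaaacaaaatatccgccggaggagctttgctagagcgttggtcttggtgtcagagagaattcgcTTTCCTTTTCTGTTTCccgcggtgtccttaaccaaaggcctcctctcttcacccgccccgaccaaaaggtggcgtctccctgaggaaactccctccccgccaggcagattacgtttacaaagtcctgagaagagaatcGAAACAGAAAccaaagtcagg

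RefSeq's promoter table held 32 of the 43 members, in windows from 250 bases before to 50 bases after the start. An ISRE core lay in the window of 17 members (53.1%), against 4.38% of all 27305 genes in the table and 3.57% of its 35116 windows. These 17 were GBP1, GBP3, GBP4, IFI27, IFI44, IFI44L, IFI6, IFIH1, IFIT1, IFIT3, IFIT5, IFITM1, IFITM3, ISG15, ISG20, MX1 and OAS3. A GAS core lay in the windows of 8 members (25%: GBP3, IFI27, IFI35, IFITM1, IRF1, IRF9, MX1 and OAS1), against 9.38% of genes and 7.66% of windows. These are matches of letters in a short window and no measure of binding.

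The arrays carried 612 negative control probe sets, and "near the negative controls" means a group mean under their 75th percentile, which was 5.64 to 6.46 on the MDA-MB-231 arrays (log2 signal). The negative controls read higher on the Maraviroc IC50 arrays, with medians of 5.16 and 5.08 against 4.62 to 4.96 on the other 11 MDA-MB-231 arrays. The interquartile range over genes was narrower there, at 4.07 and 4.05 against 4.21 to 4.65. Replicates of Maraviroc IC50 correlated across genes at 0.960, and those of the other groups at 0.984 to 0.991. On all 4 arrays titled MCF10, 3 of 6 basal epithelial markers were above that percentile (S100A2, ITGB4 and SFN), and KRT14 was not (4.36 to 5.16). Of 10 luminal markers 3 were above it on all 4, KRT8 (13.41 to 14.30), KRT18 (9.94 to 12.86) and GRHL2, while CDH1 and EPCAM were near the negative controls (3.62 to 5.55 and 4.87 to 5.61). Of 9 fibroblast markers 5 were above it (DCN, FBLN1, MMP2, THY1 and COL1A2), and LUM and PDGFRA were near the negative controls (4.19 to 5.23 and 4.50 to 5.45). Of 8 mesenchymal markers 6 were above it (VIM, CDH2, FN1, SPARC, SNAI2 and TGFBI), and ZEB1 and AKAP12 were not on all 4. On the MDA-MB-231 arrays 3 were above it throughout (VIM, ZEB1 and TGFBI). The mesenchymal list mean was 11.56 to 12.16 on the MCF10 arrays and 7.51 to 10.08 on the MDA-MB-231 arrays. The cell line field of the MCF10 arrays names MDA-MB-231 while their titles name MCF10. The titles were followed, and the markers do not settle the line's identity. Of 8 leukocyte markers, CD79A, CD68, NKG7 and TYROBP were above that percentile on every array of both lines and CD3E on the 4 MCF10 arrays, 4 and 5 of 8. CD68 had group means of 10.64 to 14.93, PTPRC of 5.31 to 7.20 and LYZ of 3.58 to 4.61. The list mean over these markers was 7.43 to 7.96 on the single MDA-MB-231 arrays and 7.24 to 8.25 on the MCF10 arrays.

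In MDA-MB-231 given no compound, 26 of the 43 members lay above the negative controls' 75th percentile on all 5 control arrays and 7 on none. Those 7 were GBP4, GBP5, GBP6, GBP7, IFIT1B, IRF7 and IRF8, so the levels of IRF7, the factor that amplifies interferon production, and IRF8, a factor of myeloid and lymphoid cells, were not distinguishable from background. By role, 4 of 8 transcription factors, 3 of 6 sensors and synthetases, 10 of 14 effectors, 3 of 7 guanylate-binding proteins and 6 of 8 of the remaining genes were above it on all 5 arrays. Across all 17 arrays 18 members were above it on every one. These included the IFITM genes IFITM1, IFITM2, IFITM3 and IFITM10, the modifier ISG15, the sensor IFI16 and the factors IRF2 and IRF9. IFITM3 read 16.26 to 16.84 and IFITM1 13.78 to 14.15 on the 5 control arrays. IFITM1, IFITM2 and IFITM3 are close paralogs, and several IFIT and GBP genes are also related in sequence. Signal may be shared among the probe sets of such relatives, so these genes are uncertain individually. The interferon genes themselves were low: of 11 measured, 9 were below that percentile on all 17 arrays. IFNB1 read 3.99 to 5.62. IFNL3 passed it on 6 arrays and IFNG on 1.

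**Figure D1:**
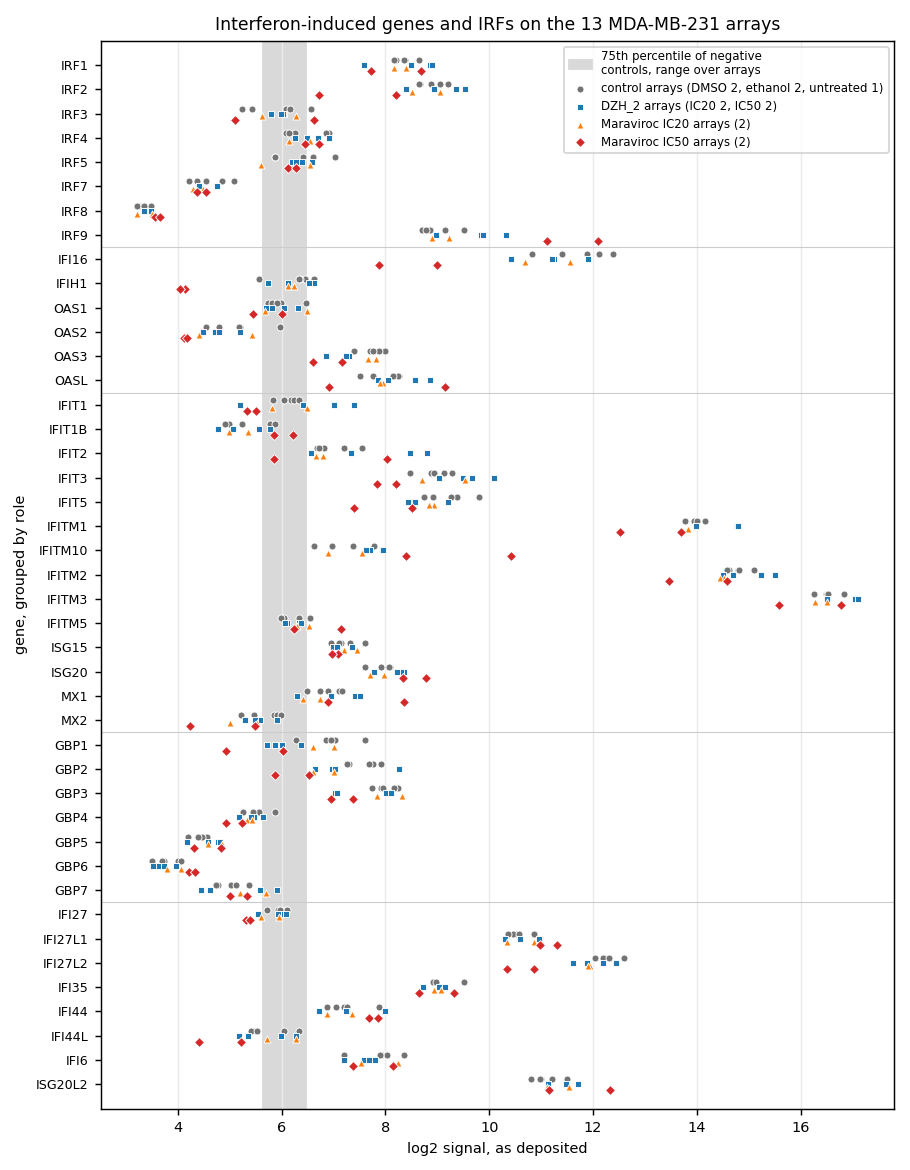
Deposited log2 signal of the 43 members on the 13 MDA-MB-231 arrays, 1 point per array, with genes grouped by role on the vertical axis. The grey band spans the 75th percentiles of the negative controls on these arrays (5.64 to 6.46); the Maraviroc IC50 points of IRF9 (11.12 and 12.10) stand above all other arrays and those of IFI16 (7.88 and 9.0) below them.

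Maraviroc at its IC50 was compared with ethanol to ask which members respond to the higher dose. IRF9 and IFITM10 rose, and IFI16, IFIH1, IFI27L2, IRF2, GBP2 and OAS3 fell. Together 8 of 43 members passed limma's test at an adjusted p under 0.05 (18.6%), against 27% of all genes. The 2 rises were 4.65% of the members against 12% of all genes, and the 6 falls 14% against 15%, so the members passed no more often than genes at large. Without the threshold, 15 of 43 members had a positive difference against 56.5% of all genes, and the members' median difference was -0.34 against 0.11. At an unadjusted p under 0.05 there were 14 members (32.6%) against 37.3% of genes.

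IRF9, the DNA-binding subunit of the factor that carries type I signals to the nucleus, read 11.12 and 12.10 on the Maraviroc IC50 arrays, 8.78 and 9.51 with ethanol, 8.70 and 8.86 with DMSO, and 9.15 in untreated cells. Both treated arrays lay above all 11 other MDA-MB-231 arrays. The difference from ethanol was 2.46 ± 0.39 (SE; 2 arrays against 2), or 5.52-fold, with an adjusted p of 0.00059 by limma. IRF2, which competes with IRF1 for its sites, read 6.71 and 8.20 with Maraviroc IC50 and 8.66 and 9.20 with ethanol. The treated arrays differed from each other by more than the second of them differed from ethanol. IRF2 fell by 1.48 ± 0.46, with an adjusted p of 0.0313 by limma. Without the first Maraviroc IC50 array the difference was -0.73 and missed the threshold (adjusted p = 0.233), and without the second it was -2.22. The other 6 IRFs did not pass, with differences from -0.46 for IRF3 to 0.36 for IRF8, and IRF1 at -0.19 ± 0.42.

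IFI16, a sensor of DNA, read 7.88 and 9.0 with Maraviroc IC50 and 11.41 and 10.83 with ethanol. The groups did not overlap, and no other MDA-MB-231 array was below 10.41. IFI16 fell by 2.68 ± 0.49, 6.40-fold, with an adjusted p of 0.00136 by limma. IFIH1, which encodes the double-stranded RNA sensor MDA5 and has the 3 ISRE matches shown, read 4.14 and 4.04 against 5.57 and 6.33 with ethanol. The 2 treated arrays were alike and below the other 11. IFIH1 fell by 1.86 ± 0.33 (adjusted p = 0.00122, limma), to a level near the negative controls. With all values raised to the highest 75th percentile of the negative controls, the IFIH1 difference was 0, so its fall lay within the range of background signal. OAS3, which makes the oligoadenylates that activate RNase L, read 7.16 and 6.60 against 7.71 and 7.88, with no overlap. It fell by 0.91 ± 0.28 (adjusted p = 0.0294, limma). OAS3 missed the threshold in 7 of 14 alternatives. Among these were quantile normalization (adjusted p = 0.0931), each array centred on its median (0.0715), array weights (0.1) and the 4 arrays fitted alone (0.131). OAS1, OAS2 and OASL did not pass. OASL read 9.15 and 6.91 with Maraviroc IC50, on either side of the ethanol arrays at 8.27 and 8.25.

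Among the 14 effectors, IFITM10 passed the test and the other 13 did not. IFITM10, a relative of the IFITM restriction factors by sequence, read 8.39 and 10.42 with Maraviroc IC50 and 6.63 and 7.78 with ethanol. The treated arrays were both higher but far apart from each other. IFITM10 rose by 2.20 ± 0.54 (adjusted p = 0.00856, limma), and without the second treated array the difference was 1.19 and missed the threshold (adjusted p = 0.054). IFITM1, which blocks entry of enveloped viruses, read 12.52 and 13.69 against 13.95 and 14.15, a difference of -0.94 ± 0.40 (adjusted p = 0.102, limma). IFIT1, whose product binds viral RNA ends, read 5.34 and 5.50 against 6.24 and 6.04 (adjusted p = 0.361). IFIT2 read 8.02 and 5.85 and MX1 8.36 and 6.89, and in both genes the first Maraviroc IC50 array was the higher. ISG15, a ubiquitin-like modifier, read 7.08 and 6.97 against 7.61 and 7.11, a difference of -0.34 with a 95% interval from -0.92 to 0.25. The effectors as a group had a median difference of -0.41, within a range from -0.94 to 2.20.

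Of the guanylate-binding proteins, interferon-inducible GTPases that act against intracellular pathogens, GBP2 passed. It read 5.88 and 6.52 with Maraviroc IC50 and 7.25 and 7.75 with ethanol, without overlap, and fell by 1.3 ± 0.40 (adjusted p = 0.03, limma) to near the negative controls. It lost the call without the first Maraviroc IC50 array (difference -0.98, adjusted p = 0.136) and without either ethanol array (0.0564 and 0.188). GBP1 read 4.93 and 6.02 against 6.28 and 6.86, a difference of -1.09 ± 0.39 that just missed the threshold (adjusted p = 0.0527, limma). GBP3 read 6.95 and 7.38 against 7.95 and 8.16 (adjusted p = 0.119). Among the remaining genes IFI27L2, of the small hydrophobic IFI27 and IFI6 family, read 10.35 and 10.87 against 12.03 and 12.59. Both treated arrays were below the other 11 MDA-MB-231 arrays. It fell by 1.70 ± 0.32 (adjusted p = 0.00191, limma), while its relative IFI27L1 had a difference of 0.41 ± 0.30 that did not pass.

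The array medians over genes were 6.84 and 6.90 with Maraviroc IC50 and 7.01 and 7.07 with ethanol, so that centring each array on its median added 0.17 to every difference. IRF9, IFI16 and IFI27L2 passed with every alternative setting tried and without any 1 of the 4 arrays. The epithelial keratin KRT8 and the scaffold gene AKAP12 also had lower means with Maraviroc IC50 (10.77 and 7.35) than with ethanol (13.19 and 10.66). Other markers of the same lists had higher means, among them CLDN4 (8.67 against 7.80), GRHL2 (6.71 against 6.18) and SPARC (6.99 against 5.73). The part of these shifts, and of the higher negative controls, in the members' differences was not tested.

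**Figure D2:**
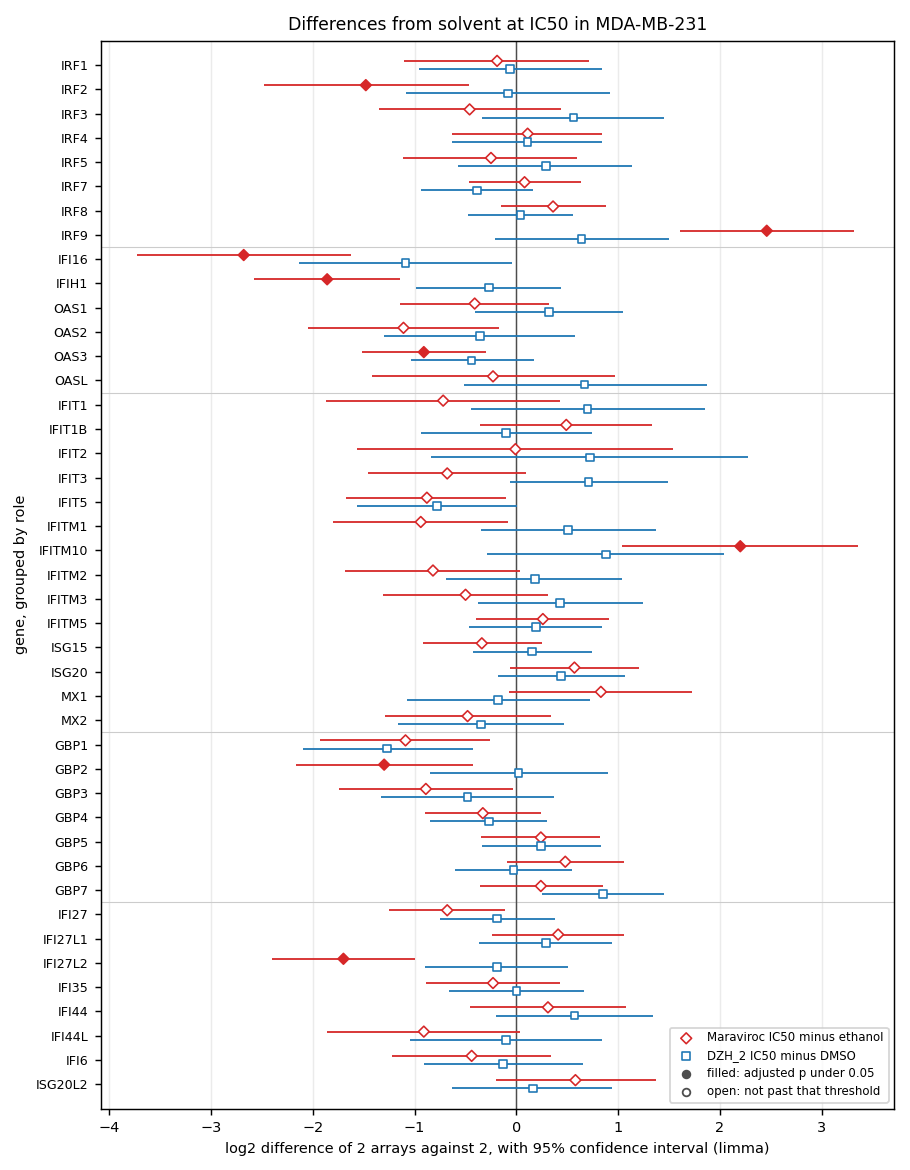
Differences of the 43 members from solvent at IC50 in MDA-MB-231 (log2, 2 arrays against 2), with 95% confidence intervals from limma; red diamonds are Maraviroc and blue squares DZH_2, and filled symbols mark an adjusted p under 0.05. The 8 filled symbols all belong to Maraviroc, with IRF9 (2.46) and IFI16 (-2.68) at the extremes, and no DZH_2 symbol is filled.

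Maraviroc at its IC20 left no member past the threshold. limma called 0 of 43 members and 0% of all genes, and no member had an unadjusted p under 0.05 against 1.75% of genes. Members' differences from ethanol ran from -0.70 to 0.51 with a median of -0.09. The 4 members with the smallest p were GBP7 (5.19 and 5.69 against 5.12 and 4.73 with ethanol), GBP2 (7.0 and 6.60 against 7.25 and 7.75), GBP5 (4.58 and 4.85 against 4.47 and 4.20) and IFI27L2 (11.94 and 11.90 against 12.03 and 12.59). GBP7 and GBP5 were near the negative controls in both groups. IRF9 read 8.90 and 9.22, within the range of the ethanol arrays.

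Between the Maraviroc doses, 8 of 43 members passed (18.6%), against 26.7% of all genes. This comparison shares the IC50 arrays with the one above. The 2 rises (against 11.9% of all genes) were IRF9, by 2.55 ± 0.39 (adjusted p = 0.000476, limma), and IFITM10, by 2.19 ± 0.54 (0.00904). The 6 falls (against 14.8%) were IFI16, IFIH1, IFI27L2, GBP1, IFIT3 and OAS3. IFI16 fell by 2.68 ± 0.49 and IFIH1 fell by 2.09 ± 0.33 (adjusted p = 0.00138 and 0.000564, limma). IFIT3, a partner of IFIT1, read 7.84 and 8.20 at IC50 and 9.53 and 8.70 at IC20, and fell by 1.10 ± 0.36 (adjusted p = 0.0368, limma). Without the first IC20 array its difference was -0.69. IFIT3 missed the threshold in 6 of 13 alternatives, among them quantile normalization, median centring, array weights and the 4 arrays fitted alone. IFITM10 missed it without the second IC50 array (difference 1.17, adjusted p = 0.0571), without the second IC20 array (0.0825) and with the 4 arrays fitted alone (0.0768). IFI27L2 missed it without either IC20 array (adjusted p = 0.0605 and 0.0505). GBP1 missed it without either IC20 array (0.0576 and 0.148), without the first IC50 array (difference -0.78, adjusted p = 0.152) and with the 4 arrays fitted alone (0.0909). With the floor at the negative controls the IFIH1 difference was 0 and that of GBP1 -0.34. OAS3 missed it in 7 of 13 alternatives, among them without either IC20 array (0.11 and 0.173) and without the second IC50 array (difference -0.59, adjusted p = 0.186).

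DZH_2 was set against DMSO at both doses. At IC20, limma called 0 of 43 members against 0.871% of all genes, and 5 members had an unadjusted p under 0.05 (11.6% against 12% of genes). At IC50 it called 0 against 1.57%, with 3 members at an unadjusted p under 0.05 (6.98% against 15.1%). The members' median difference was -0.03 at IC20 and 0.04 at IC50. Both doses share the 2 DMSO arrays.

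GBP1 had the smallest p at each dose. It read 6.01 and 5.87 at IC20 and 5.71 and 6.38 at IC50, against 7.61 and 7.02 with DMSO, 6.28 and 6.86 with ethanol and 6.95 in untreated cells. All 4 DZH_2 arrays were below both DMSO arrays, but the higher of them was above the lower ethanol array. The differences were -1.37 ± 0.39 (adjusted p = 0.131, limma) and -1.27 ± 0.39 (0.127). When the Maraviroc IC50 arrays were left out of the fit, GBP1 passed at both doses (adjusted p = 0.0355 and 0.0377, limma), and likewise with array weights (0.0416 and 0.0375). IRF9 read 9.84 and 10.32 at IC20 and 8.97 and 9.87 at IC50, against 8.70 and 8.86 with DMSO, so that all 4 treated arrays were above both DMSO arrays. Its differences were 1.3 ± 0.39 (adjusted p = 0.163, limma; 0.0479 with the replicate number as a block) and 0.64 ± 0.39 (0.486).

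OAS3 read 6.87 and 6.86 at DZH_2 IC20 and 7.30 and 7.23 at IC50, against 7.40 and 8.0 with DMSO, so that all 4 treated arrays were lower than either DMSO array. The difference at IC20 was -0.84 ± 0.28 (adjusted p = 0.217, limma). IFIT5, an IFIT member that binds RNA, read 8.52 and 8.56 at IC20 and 8.43 and 9.20 at IC50, against 9.38 and 9.80. Its differences were -1.05 ± 0.36 (adjusted p = 0.238, limma) and -0.78 ± 0.36 (0.339). IFI16 read 10.41 and 11.91 at IC50 against 12.39 and 12.12, a difference of -1.09 ± 0.49 that was -0.34 without the first treated array. GBP7 read 5.91 and 5.58 at IC50 and 4.61 and 4.44 at IC20, against 4.78 and 5.02 with DMSO, near the negative controls throughout. Its difference between the DZH_2 doses, 1.22 ± 0.28, had an unadjusted p under 0.05 and an adjusted p of 0.999 by limma. It was the 1 member of 43 to do so, and limma called 0 members and 0% of genes between these doses.

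Maraviroc and DZH_2 were then set against each other at the same IC level, after subtracting each compound's own solvent. At IC50 limma called 0 of 43 members against 6.17% of all genes, with 7 members at an unadjusted p under 0.05 (16.3% against 19.7% of genes). For IRF9 the Maraviroc response exceeded the DZH_2 response by 1.82 ± 0.56 (95% interval 0.61 to 3.03; adjusted p = 0.0764, limma). For IFIH1 the difference of responses was -1.59 ± 0.47 (0.0675) and for IFI27L2 -1.51 ± 0.46 (0.0745). These 3 passed with the replicate number as a block. The calls also turned on single arrays: without the first Maraviroc IC50 array IRF9, IFITM10 and OASL passed, and without the second IRF2, IRF3, IFI27L2, IFITM1, IFITM3 and MX1 did. Without the first DZH_2 IC50 array IFIH1 and IFI27L2 passed. For IFI16 the interval ran from -3.08 to -0.10. At IC20 limma called 0 members and 0% of genes, with 3 members at an unadjusted p under 0.05 (6.98% against 7.2% of genes).

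The solvents were compared as a check on the baseline. Between ethanol and DMSO limma called 0 members and 0% of genes, and 3 members had an unadjusted p under 0.05 (6.98% against 7.64% of genes). IRF3, which is activated by phosphorylation when nucleic acid is sensed, read 6.09 and 6.57 with ethanol and 5.42 and 5.24 with DMSO (difference 1.00 ± 0.41, adjusted p = 0.617, limma). With DMSO it was near the negative controls, and the difference was 0.06 with the floor at their 75th percentile. IFI16 read 11.41 and 10.83 with ethanol and 12.39 and 12.12 with DMSO (-1.13 ± 0.49, 0.63). IRF7 was near the negative controls in both.

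Other parts of the pathway were read through 5 lists. Among 19 receptors, kinases and inhibitors, Maraviroc IC50 raised 1 and lowered 3 (21.1% called, against 27% of all genes). The receptor chain gene IFNAR2 fell by 2.15 ± 0.31 (adjusted p = 0.000271, limma), and PIAS1, an inhibitor of cytokine signalling, fell by 3.53 ± 0.55 (0.000497). The phosphatase gene PTPN1 fell by 1.61 ± 0.25 (0.000463), and the interferon gamma receptor gene IFNGR1 rose by 1.34 ± 0.33 (0.00911). Of 16 genes that sense nucleic acid upstream of interferon, 2 fell (12.5%). They were TLR3, the endosomal receptor of double-stranded RNA, by 2.34 ± 0.33 (0.000214) to near the negative controls, and the kinase gene IKBKE by 1.19 ± 0.28 (0.00758). None of the 11 interferon genes passed.

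Among 44 other interferon-stimulated genes, 14 fell and 2 rose with Maraviroc IC50, with a median difference of -0.50. In all 36.4% were called, against 27% of all genes (15% lower and 12% higher). DTX3L, which pairs with PARP9 in ubiquitin transfer, fell by 3.77 ± 0.50 to near the negative controls (adjusted p = 0.00015, limma). SAMD9, PARP9, SAMD9L and APOL1 also fell to near the negative controls, and TRIM5 was near them in both groups. EIF2AK2, which encodes the RNA-dependent kinase PKR, fell by 2.64 ± 0.40 (0.000407). TRIM14 fell by 2.35 ± 0.33 (0.000237) and SP110 by 1.5 ± 0.30 (0.00265), and the rises were SHFL and HELZ2, by 2.11 ± 0.50 and 1.46 ± 0.45. Among 21 antigen presentation genes, 8 fell and 4 rose (57.1% called, against the same 27% of all genes). The peptide trimming enzyme gene ERAP1 fell by 2.60 ± 0.26 (adjusted p = 2.4e-05, limma). The proteasome genes PSME1 and PSMB8 fell by 1.65 ± 0.30 and 1.63 ± 0.33. Of the other falls, ERAP2 and PSMB10 ended near the negative controls, and HLA-DRA was near them in both groups. B2M, HLA-E and TAP1, of the class I complex and its peptide transporter, rose by 0.96 ± 0.28, 1.52 ± 0.48 and 1.23 ± 0.37, and the fourth rise, NLRC5, was near the negative controls in both groups.

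With DZH_2 at IC50, limma called 1 of the 44 other interferon-stimulated genes (2.27%) and 1 of the 21 antigen presentation genes (4.76%), against 1.57% of all genes. The scramblase gene PLSCR1 fell by 1.32 ± 0.30 (adjusted p = 0.0467) and TAPBP, which encodes the peptide-loading chaperone tapasin, rose by 1.60 ± 0.32 (0.0346). With DZH_2 at IC20 and with Maraviroc at IC20, limma called none of the genes measured in these lists. The TAPBP difference at DZH_2 IC20 was 1.38 ± 0.32 (adjusted p = 0.0725, limma).

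In the arrays titled MCF10 each condition had 1 array, so values are given without a test and the differences have no replicate check. A member is counted where both DZH_2 doses differed from the DMSO array by at least 1 on the log2 scale, that is 2-fold, in 1 direction. Both doses share this DMSO array. IFIT1, IFIT3, MX1, IRF9 and ISG15 were higher, 5 of 43 members (11.6%) against 4.52% of all genes. IFITM1 and IFITM2 were lower, 2 members (4.65%) against 4.88%. The median difference over members was 0.34 at IC20 and 0.33 at IC50, against 0.02 and 0.01 over all genes. Differences were positive for 31 and 30 of the 43 members, against 51.1% and 50.7% of genes.

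IFIT1 read 6.05 at IC20 and 6.81 at IC50, against 3.41 with DMSO and 3.49 untreated. The differences from DMSO were 2.63 and 3.39 (10.5-fold at IC50), but the controls lay within the negative control range, and both treated values were close to its 75th percentile, which was 6.60 on the IC20 array and 6.19 on the IC50 array. IFIT3 read 7.41 and 7.13 against 5.17 and 5.95, and the effector GTPase gene MX1 7.48 and 7.71 against 6.14 and 6.11. In both genes the treated arrays were above both controls. ISG15 read 8.29 at each dose against 7.22 and 6.88, and IRF9 11.20 and 11.33 against 10.02 and 10.21. IRF9 was above the negative controls on all 4 arrays. With all values raised to 6.60, the differences of IFIT1 were 0 and 0.20, those of IFIT3 0.81 and 0.52 and those of MX1 0.88 and 1.11. With this floor IRF9, ISG15, IFITM1 and IFITM2 kept a 2-fold difference at both doses. ISG15 fell short of it with each array centred on its median (0.98 and 0.99) and at IC50 with quantile normalization (0.93). IRF9, IFITM1 and IFITM2 kept it with both of these scalings.

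IFITM2 read 14.45 and 14.73 with DZH_2 against 16.50 with DMSO and 16.54 untreated, differences from DMSO of -2.05 and -1.77. IFITM1 read 12.77 and 12.91 against 14.28 and 14.54. IFITM3 read 15.79 and 16.19 against 17.10 and 17.15, past 2-fold at IC20 only. These 3 paralogs were all lower on both treated arrays. OAS1, a synthetase, read 7.10 at IC20 and 8.70 at IC50 against 6.14 and 6.36, past 2-fold at IC50 only. At the single doses, 9 members were at least 1 above DMSO at IC20 (11.6% of all genes were) and 14 at IC50 (9.38%). At least 1 below DMSO were 7 members at IC20 (12.8% of genes) and 2 at IC50 (8.83%).

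Against both the DMSO and the untreated array, 4 members were higher at both doses (2.27% of all genes), namely IFIT1, IFIT3, ISG15 and MX1. Lower were 2 (2.9%), IFITM1 and IFITM2. For IRF9 the IC20 array exceeded the untreated array by 0.99. The DMSO and untreated arrays themselves differed by at least 1 for 5 members, against 8.28% of genes. GBP1 was among these, at 5.17 with DMSO and 7.20 untreated, so that the control chosen sets the sign of its DZH_2 difference. IFIH1 was another, at 5.97 and 4.11. In the same arrays the basal markers KRT5 and S100A2 were lower with DZH_2 (5.81 and 5.69 against 8.92 and 9.67, and 11.25 and 10.74 against 14.78 and 14.91). SFN was higher (12.13 and 13.11 against 11.52 and 11.16), and KRT14 read 5.16 and 4.55 against 5.15 and 4.36. The negative controls' median was 5.30 on the IC20 array and 5.01 to 5.04 on the other 3. The part of these shifts in the members' differences was not tested.

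Of the pathway lists, JAK1, a receptor-associated kinase, read 10.49 and 10.84 with DZH_2 against 7.96 and 8.56 in the controls. PIAS1 read 7.84 and 8.99 against 10.25 and 10.27. PARP9 and PARP14 were higher at both doses and PML lower, 3 of 44 other interferon-stimulated genes (6.82%). B2M was higher (15.91 and 15.95 against 14.81 and 14.90) and PSME1 lower (8.66 and 9.96 against 12.20 and 12.38), 2 of 21 antigen presentation genes (9.52%). Over all genes 4.52% were higher and 4.88% lower by this rule. None of the 16 upstream sensing genes passed 2-fold at both doses. IFNG was lower than DMSO, where it read 6.26, but the untreated array read 3.90.

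**Figure D3:**
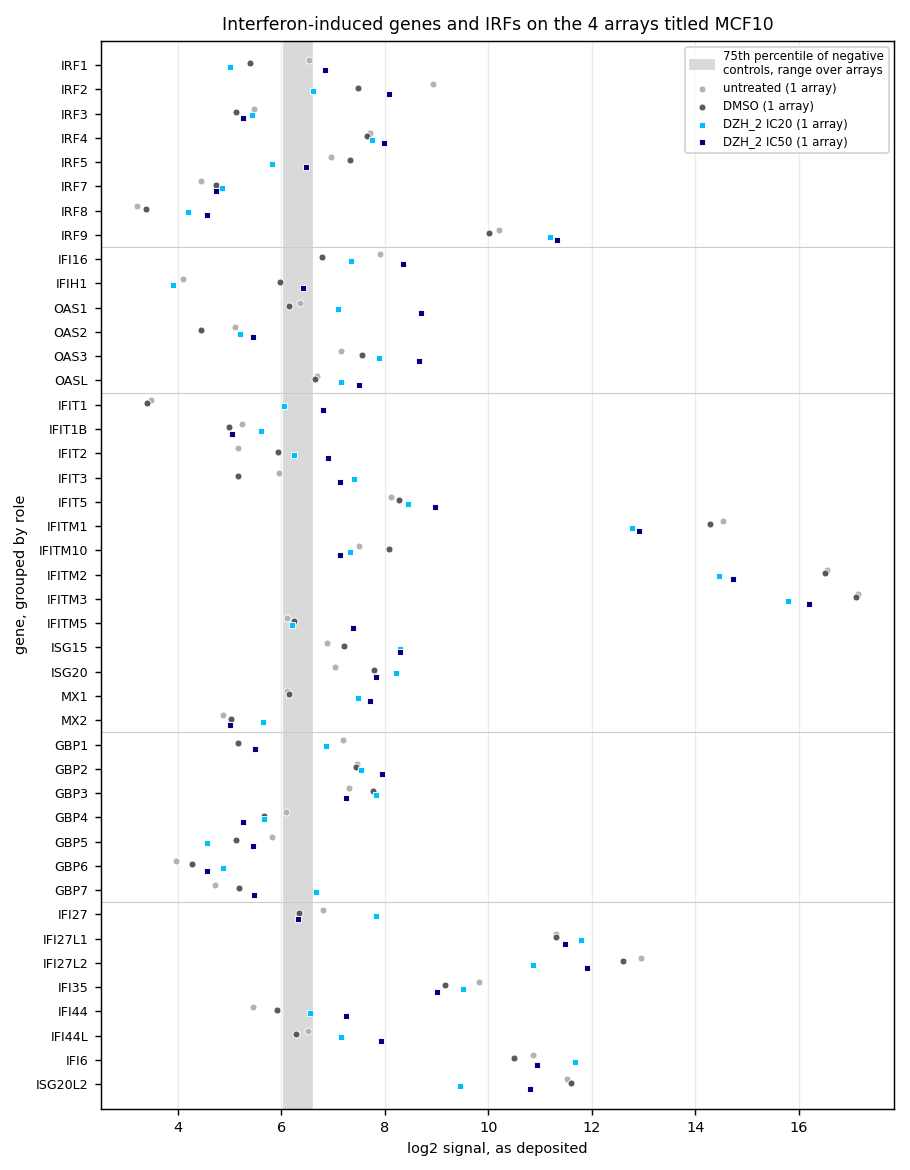
Deposited log2 signal of the 43 members on the 4 arrays titled MCF10, 1 point per array, with genes grouped by role on the vertical axis and the grey band at the 75th percentiles of the negative controls. DZH_2 points (blue) of IFIT1, IFIT3, MX1, ISG15 and IRF9 lie above both control points (grey), and those of IFITM1, IFITM2 and IFITM3 below them.

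Between the lines, members were counted where the MCF10 array differed by at least 1 in 1 direction from MDA-MB-231 both with DMSO and untreated. Higher in MCF10 were 4 members, IFI6, IFITM2, IRF4 and IRF9 (8.72% of all genes were). Lower were 7, IFI16, IFIT3, IFIT1, IRF1, IFI44, IFIT2 and IFIT5 (20.5% of all genes). IFI6, a mitochondrial and endoplasmic reticulum protein gene, read 10.50 with DMSO and 10.87 untreated, against 7.94, 7.21 and 7.89 on the corresponding MDA-MB-231 arrays. IRF9 read 10.02 and 10.21 against 8.70, 8.86 and 9.15, and IRF4, a lymphoid factor, 7.66 and 7.71 against 6.26, 6.92 and 6.15. IFITM2 read 16.50 and 16.54 against 14.61, 14.79 and 14.81. On these control arrays the lines did not overlap in the 4 genes, which the counting rule largely fixes. With Maraviroc IC50, IRF9 in MDA-MB-231 read 11.12 and 12.10.

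IFI16 read 6.79 and 7.91 in MCF10 against 12.39, 12.12 and 11.89 in MDA-MB-231. IFIT3 read 5.17 and 5.95 against 9.28, 8.88 and 9.13, and IRF1, an activator of interferon and antigen presentation genes, 5.40 and 6.54 against 8.21, 8.38 and 8.35. IFIT1 read 3.41 and 3.49 against 6.18, 5.83 and 6.33. IFIT2 read 5.93 and 5.16 against 7.54, 6.82 and 6.71, IFI44 5.91 and 5.45 against 7.21, 6.87 and 7.25, and IFIT5 8.27 and 8.12 against 9.38, 9.80 and 9.26. Each of these 7 genes was lower on both MCF10 arrays than on the 3 others, which the counting rule largely fixes. IFIT1, IFIT2, IFIT3 and IFI44 were near the negative controls in MCF10. IFIH1 read 5.97 and 4.11 against 6.44, 6.36 and 6.62 and did not reach 1 with DMSO.

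GBP5, IFI27L1, IRF5 and IFI27 came next on the higher side, each short of 1 either with DMSO or untreated. Of 23 background control probe sets, 8 read the same to 2 decimals on all 13 MDA-MB-231 arrays and none of these also on the MCF10 arrays, so the lines' arrays may have been normalized apart. Centring each array on its median added 0.41 to the difference between lines with DMSO. Levels set across the lines carry that limit.

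**Figure D4:**
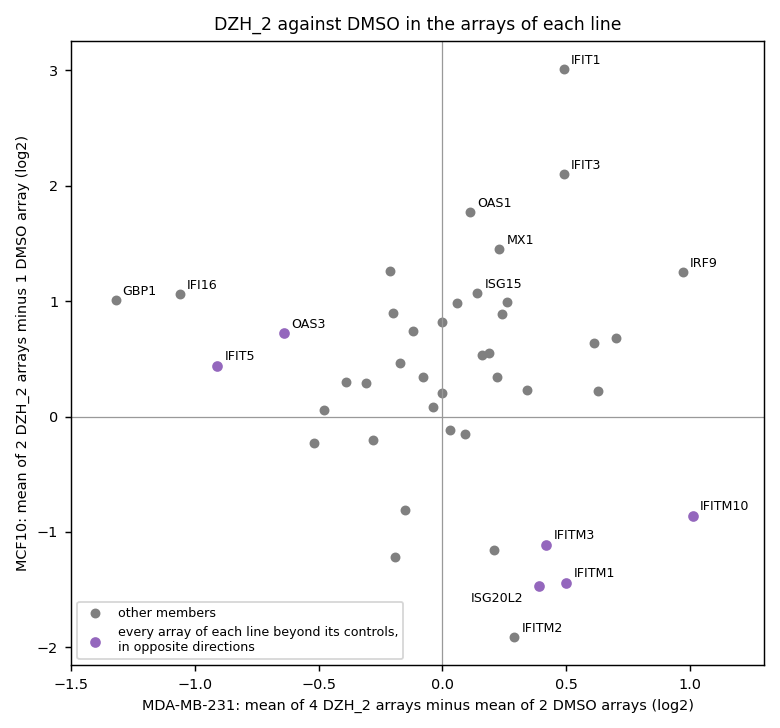
DZH_2 minus DMSO for each of the 43 members in MDA-MB-231 (horizontal axis, log2, mean of 4 treated minus 2 control arrays) and in MCF10 (vertical axis, log2, mean of 2 treated minus 1 control array). IFIT1 and IFIT3 stand highest on the vertical axis and IFITM2 lowest. Purple points mark the 6 members whose arrays lay beyond their controls in opposite directions in the lines (14%, against 6.44% of all genes). These controls were DMSO alone in MDA-MB-231, and DMSO and untreated in MCF10.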

How the data were processed

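Total RNA extracted with Trizol was labelled with the GeneChip WT PLUS kit and hybridised to Affymetrix arrays, per the labels' protocols. The authors deposited log2 signals of 24351 probe sets. Their summarisation, background correction and normalization were not given in the sources consulted, and they were taken unaltered. Arrays have no read depth, so precision is limited by how many there are. Groups came from the sample titles.

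Of the probe sets, 17709 had 1 gene symbol in the platform annotation and 6642, controls included, had none listed. Where a gene had more than 1 probe set (20 genes), the brightest on average represented it, leaving 17687 genes. A single limma 3.58.1 model (R 4.3.3, data.table package, version 1.17.8) with a mean per group covered the 12 MDA-MB-231 arrays whose groups have replicates, leaving 6 residual degrees of freedom. All tests were 2-sided. Adjusted p-values follow Benjamini and Hochberg over 17687 genes, and 0.05 was the threshold. Standard errors come from 1 spread per gene over these 12 arrays. No filter on low signal was applied. The step was tested on simulated data. Groups of 1 array were described by values. Motif matches, figures and summaries used Python 3.11.15, pandas 2.3.3 and matplotlib 3.10.9, with promoters from RefSeq (GRCh38.p14).

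The members, roles and gene lists were chosen with earlier results of these data known. Some items are not reported here. Values on the arrays compared are given for members called against solvent and for the 4 with the smallest p where fewer were called. Members past 2-fold in MCF10 have them too. For the largest called differences elsewhere and the 8 highest and 8 lowest between lines, levels or differences are given. Others are examples. From each list up to 4 genes with the smallest p were named by rule, and others were chosen after their values were seen. Alternatives were quantile normalization, median centring, a filter on dim genes, array weights, a trended prior, the mean of several probe sets, fewer arrays in the fit, all 5 control arrays together, a replicate block, leaving out each array and, added after seeing the data, a floor at the negative controls and both MCF10 controls together. The replicate numbers carried no stated pairing, and the correlation of same-numbered deviations over genes was -0.08 to 0.30.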

Additional observations from a re-analysis of the deposited data

Results flagged for a closer look

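Of the 43 members, 6 had DZH_2 arrays beyond their controls in opposite directions in the lines. All 4 MDA-MB-231 DZH_2 arrays lay beyond both DMSO arrays on 1 side. Both MCF10 DZH_2 arrays lay beyond the DMSO and untreated arrays on the other. These 6 were 14% of the members, against 6.44% of all genes. The MDA-MB-231 untreated array was not part of this rule. For IFITM1 (14.01), IFITM3 (16.53) and ISG20L2 (11.21) it read above the lowest DZH_2 array (13.98, 16.5 and 11.13). For IFITM10, OAS3 and IFIT5 all 4 DZH_2 arrays lay beyond it too. The higher DMSO array read 13.98 for IFITM1, equal to that lowest array to 2 decimals, and 16.49 for IFITM3. The ethanol arrays were not part of the rule either, and only OAS3 had all 4 DZH_2 arrays beyond both (7.71 and 7.88). For IFITM1, IFITM3, ISG20L2 and IFITM10 the higher ethanol array (14.15, 16.84, 11.5 and 7.78) was above the lowest DZH_2 array. That lowest array read 7.63 for IFITM10. For IFIT5 both ethanol arrays (8.75 and 8.92) were below the highest DZH_2 array (9.2). The difference between lines was not tested, since MCF10 has 1 array per condition. The values below are the DZH_2 difference from DMSO in MCF10 minus that in MDA-MB-231, on the log2 scale. IFITM1 gave -1.94 and IFITM3 -1.52, both higher with DZH_2 in MDA-MB-231 and lower in MCF10. IFITM10 gave -1.87 and the rRNA-processing exonuclease gene ISG20L2 -1.85, in the same sense. OAS3 gave 1.36 and IFIT5 1.35, lower with DZH_2 in MDA-MB-231 and higher in MCF10. In MDA-MB-231 none of these 6 passed the threshold for DZH_2 against DMSO by limma at either dose, apart from OAS3 at IC20 when set against all 5 control arrays.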

How the results depend on the processing

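The counts of 0 called members for Maraviroc IC20 against ethanol, between the DZH_2 doses, for the compounds at IC20 and for the solvents were the same with every alternative tried. For Maraviroc IC50 against ethanol the count of 8 became 5 with array weights (18.2% of all genes were called), 4 with these 4 arrays alone (13.6%), 17 against all 5 control arrays (38.7%) and 5 with the floor at the negative controls (37% of the genes above it), which was chosen after seeing the data. It was 5 to 14 with each array left out, at 5 without either ethanol array and 14 without the second Maraviroc IC50 array. For Maraviroc IC50 against IC20 the count of 8 became 4 with the 4 arrays alone and 4 to 12 with each array left out. For DZH_2 IC20 the count of 0 became 1 without the Maraviroc IC50 arrays, 1 with array weights (both GBP1), 1 against all control arrays (OAS3) and 1 with the replicate block (IRF9). For DZH_2 IC50 it became 1 without the Maraviroc IC50 arrays and 1 with array weights (both GBP1). For the compounds at IC50 it became 3 with the replicate block and 0 to 6 with each array left out. Besides the changes given above, the replicate block gave 12 for Maraviroc IC50 against ethanol and 11 between its doses, and changed no other count. In MCF10 the 7 members past 2-fold became 19 at a log2 difference of 0.5 and 4 with the floor, and the 11 between the lines became 17 at 0.5. In the limma comparisons, no difference checked for a named member reversed its direction. In MCF10 the sign of the GBP1 difference turned on the control chosen, as given above. With an array left out, the lone array of a group is assumed to vary like the other groups. Why these counts moved was not tested, apart from a floor that removes differences below it and a lower threshold that admits smaller ones. Signal near the negative controls limits what can be read for IFIH1, GBP2 and IFIT1.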
